A study of Mus musculus with 2 samples.

Results

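The expression of 10 genes that carry glucose into cells and break it down was followed across the cell classes of the wild-type (WT) mouse dorsal telencephalon at embryonic day (E) 16.5. The genes are the glucose transporters Slc2a1 and Slc2a3, the hexokinases Hk1 and Hk2, the aldolases Aldoa and Aldoc, the phosphoglycerate kinase Pgk1, the pyruvate kinase Pkm and the lactate dehydrogenases Ldha and Ldhb. They were found by symbol among the 32285 genes of the feature list. Embryos in which Emx1-Cre removes Dot1l from cortical cells were the test group of the series. Here only its control side was used, as 2 WT libraries called WT replicate 1 and WT replicate 6, and the knockout was not analysed here. The tissue was dissociated with papain and sequenced with the 10x Genomics single-cell 3' chemistry. The study names C57BL/6J mice as the source of its E16.5 single-cell data, whereas the labels give no strain and do not state that each library came from a separate embryo. The p-values below therefore measure the spread between these libraries only.

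Glycolysis turns glucose into pyruvate in the cytosol, and lactate dehydrogenase interconverts pyruvate and lactate. In the brain, GLUT1, the product of Slc2a1, carries glucose across the endothelium of the blood-brain barrier, and GLUT3, the product of Slc2a3, is known as the main neuronal transporter. Several steps are served by isoenzymes that differ between tissues, and progenitor cells are commonly described as more glycolytic than mature neurons.

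Cells were assigned to classes by marker genes that include none of the 10 genes. Cells with 1500 to 60000 unique molecular identifiers (UMIs, which mark individual captured mRNA molecules) and under 10% mitochondrial UMIs were kept, 8139 in WT replicate 1 and 8209 in WT replicate 6. The classes held 260 and 245 radial glial cells (RGCs) and 270 and 266 intermediate progenitors (IPCs), besides 2656 and 2928 excitatory neurons, 1523 and 1488 GABAergic neurons, 75 and 65 endothelial cells and 236 and 285 erythroid cells. A further 734 and 741 cells reached the gates of 2 classes and were left out. The median depth was between 7908 and 11057 UMIs per cell in the RGCs, IPCs, excitatory neurons and endothelial cells, 4848 and 4113 in the GABAergic neurons, and 3093.5 and 3777 in the erythroid cells.

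The classes were checked with markers that the gates had not used. All 6 check markers of RGCs, all 5 of IPCs, all 5 of GABAergic neurons and all 6 of endothelial cells were highest in their own class in both libraries, as were the 5 of erythroid cells that the feature list holds. Only 2 of the 5 check markers of excitatory neurons behaved in this way, because Bcl11b was higher in GABAergic neurons (820 CPM, the UMIs of a gene per 1000000 UMIs of the sum) than in excitatory neurons (227 CPM), and Slc17a6 and Nrn1 were at 132 and 179 CPM in IPCs against 122 and 70.1 CPM in excitatory neurons. The vesicular glutamate transporter gene Slc17a7 stood at 13.0 CPM in excitatory neurons and 0.773 CPM in GABAergic neurons. Endothelial cells also carried 175 CPM of 5 mural cell markers against 25.4 to 64.8 CPM in RGCs, IPCs and both classes of neurons. The part of mural cells in the endothelial values was not tested.

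Transcripts typical of a class were also counted in the sums of other classes. Globins took 72.9% of the summed UMIs of erythroid cells and between 0.137% and 0.295% of those of the other 5 classes. Erythroid sums held 311 CPM of Erbb4, a gene that stood at 6854 CPM in GABAergic neurons. Low values in erythroid cells were therefore read beside this background. Whether it came from free RNA or from droplets that held cells of different classes was not tested. The libraries shared 59 barcodes, 26 of them among the kept cells.

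Summed over the 10 genes, endothelial cells held the most UMIs, with 1994 CPM in WT replicate 1 and 2245 CPM in WT replicate 6. RGCs followed with 1546 and 1631 CPM and IPCs with 1218 and 1204 CPM. Excitatory neurons held 713 and 723 CPM and GABAergic neurons 563 and 562 CPM. These 5 classes did not overlap in their summed levels. Slc2a1 alone held 777 and 957 CPM of the endothelial sums, against 20.5 and 27.1 CPM in RGCs. The first rank of endothelial cells therefore rests on that gene. In erythroid cells the sum was 135 and 184 CPM, and 587 CPM on average once the globin UMIs were taken out of the totals.

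**Figure D1:**
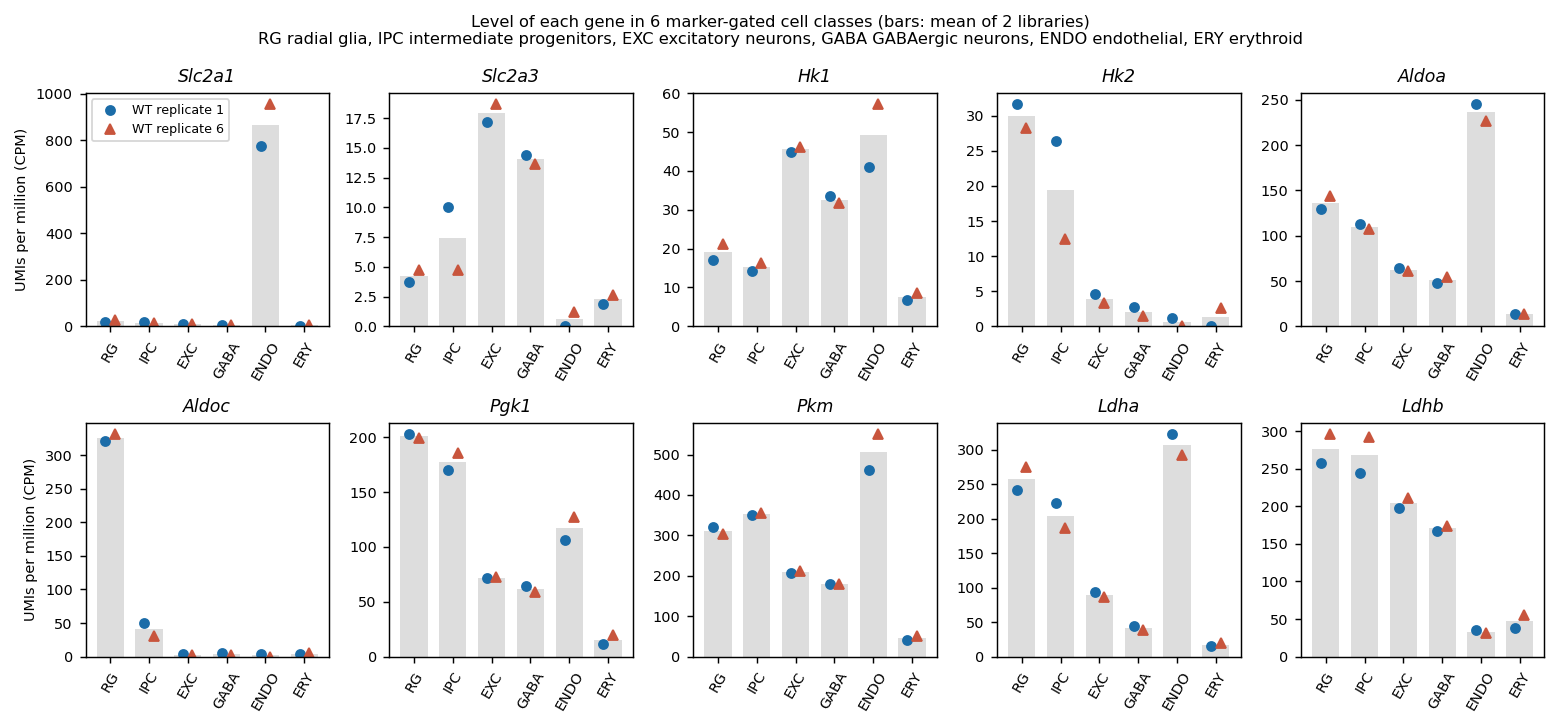
Level in CPM (linear axes that start at 0 and differ between panels) of the 10 genes in each of 6 marker-gated classes. Points are the 2 WT libraries and bars are their means. Slc2a1 stood far above the other classes in endothelial cells (867 CPM on average) and Aldoc in RGCs (326 CPM), while Slc2a3 was highest in excitatory neurons (18.0 CPM).

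To show the DNA from which transcripts of some of these genes start, the 250 bases before the RefSeq transcription start of 4 of them are given in the build of the files (mm10, RefSeq assembly GRCm38.p6). Hk2, Pgk1 and Ldha are among the 7 genes that were higher in both progenitor classes than in excitatory neurons. Ldhb was not called in either of these comparisons. Capitals mark ACGTG or its reverse complement CACGT, a form of the core of the hypoxia response element. Where the letters read CACGTG both overlap and were counted separately. The other form of the core, GCGTG, and its reverse complement CACGC were not searched for or marked. GCGTG occurs in the window of Ldhb and in a window of Aldoc, and CACGC in the other window of Aldoc. CACGC also occurs in windows of Slc2a1, Hk1 and Ldha that are not shown. The stretch of Hk2 is at chr6:82774455-82774704 on the minus strand, that of Pgk1 at chrX:106186850-106187099 on the plus strand, that of Ldha at chr7:46845554-46845803 on the plus strand and that of Ldhb at chr6:142507958-142508207 on the minus strand.
Hk2: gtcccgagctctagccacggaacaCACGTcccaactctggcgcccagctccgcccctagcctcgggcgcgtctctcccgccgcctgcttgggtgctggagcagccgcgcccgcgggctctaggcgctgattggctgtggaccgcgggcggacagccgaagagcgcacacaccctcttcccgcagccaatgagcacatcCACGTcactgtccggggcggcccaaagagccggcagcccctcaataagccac
Pgk1: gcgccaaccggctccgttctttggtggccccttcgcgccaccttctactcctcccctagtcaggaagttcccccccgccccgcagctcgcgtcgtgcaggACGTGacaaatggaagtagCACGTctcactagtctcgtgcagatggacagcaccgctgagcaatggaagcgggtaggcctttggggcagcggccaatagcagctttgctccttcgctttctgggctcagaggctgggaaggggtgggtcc
Ldha: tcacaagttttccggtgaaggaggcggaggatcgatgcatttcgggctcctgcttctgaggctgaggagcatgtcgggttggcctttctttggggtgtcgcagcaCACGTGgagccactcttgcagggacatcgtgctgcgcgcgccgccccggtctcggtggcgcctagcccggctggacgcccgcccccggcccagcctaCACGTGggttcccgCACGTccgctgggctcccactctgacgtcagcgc
Ldhb: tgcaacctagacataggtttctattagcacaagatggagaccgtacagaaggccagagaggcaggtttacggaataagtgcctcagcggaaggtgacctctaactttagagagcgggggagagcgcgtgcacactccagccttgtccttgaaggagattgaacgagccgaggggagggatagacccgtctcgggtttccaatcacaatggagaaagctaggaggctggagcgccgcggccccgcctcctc

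Hk2 held 2 matches, beginning 226 and 52 bases before the start, and Pgk1 held 2, at 150 and 131 bases. Ldha held 5, at 145, 144, 48, 47 and 34 bases, of which 2 pairs were overlapping reads of CACGTG. No match lay in the window of Ldhb. Genes higher in the progenitors were not all of this kind, since neither of the 2 windows of Aldoc held a match, nor did the other window of Ldha (chr7:46846832-46847081). RefSeq gave 15 such windows for 9 of the 10 genes, several of them with alternative starts, and 7 windows of 6 genes (Slc2a1, Hk2, Aldoa, Pgk1, Pkm and Ldha) held a match. The Aldoa windows with a match overlap and hold the same site, at 126 and 202 bases before their starts. Of all 32851 windows in the same table, 16.6% held at least 1. Hk2, Pgk1 and Ldha are also the genes with more than 1 match in a window. The stretches shown can therefore not relate matches to levels. A match is a string of letters and says nothing about whether a factor binds there.

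Slc2a1 (ENSMUSG00000028645) was counted 642 times in endothelial cells of WT replicate 1 and 819 times in WT replicate 6, or 777 and 957 CPM. It stood at 20.5 and 27.1 CPM in RGCs, 17.1 and 13.3 CPM in IPCs, 8.90 and 9.20 CPM in excitatory neurons and 4.57 and 5.81 CPM in GABAergic neurons. Both endothelial libraries lay far above all others, and the order from RGCs to GABAergic neurons held without overlap, while erythroid cells (2.85 and 5.88 CPM, 12 UMIs in all) overlapped with GABAergic neurons. The 6 endothelial check markers summed to between 204 and 218 CPM in RGCs, 80.8 and 101 CPM in IPCs, 6.05 and 8.58 CPM in excitatory neurons and 2405 and 2428 CPM in endothelial cells. Of the mean of 211 CPM in RGCs, the transporter gene Slco1c1 made up 193 CPM, against 393 CPM in endothelial cells. Itm2a stood at 15.2 CPM in RGCs and 1022 CPM in endothelial cells, Fli1 at 3.21 and 609 CPM and Abcb1a at 0.186 and 217 CPM, and Ly6c1 and Ly6a were at 0 in RGCs. The part of endothelial RNA in the low Slc2a1 values of the neural classes was not tested.

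Endothelial cells exceeded RGCs in Slc2a1 by 5.37 ± 0.21 on the log2 scale (SE, n = 2 libraries per class), a 41.3-fold difference (edgeR adjusted p = 3.0e-08). Against excitatory neurons the difference was 6.44 ± 0.15 (adjusted p = 1.19e-08), and it was 6.35 and 6.52 within the 2 libraries. When each cell was thinned to 2000 UMIs, Slc2a1 was found in 67.6% and 76.6% of endothelial cells, against 5% and 4.90% of RGCs and 1.09% and 0.823% of erythroid cells. Without thinning the mean shares were 88.7%, 21.9% and 1.51%, at the depths given above.

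Slc2a3 (ENSMUSG00000003153) ran in another order. It stood at 17.2 and 18.7 CPM in excitatory neurons, 14.4 and 13.6 CPM in GABAergic neurons, 10.1 and 4.73 CPM in IPCs and 3.73 and 4.72 CPM in RGCs. Only 1 UMI was found among 140 endothelial cells in all, against 911 in excitatory neurons, so that its level in CPM was 30.2-fold higher in the neurons with a counting interval of 5.41 to 1194. The neurons thus stood above both progenitor classes in both libraries, and the spread between libraries was wide in IPCs, where 27 and 11 UMIs were counted.

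Within the pair of transporters, Slc2a3 took 15.4% and 14.8% of the UMIs in RGCs, 37.0% and 26.2% in IPCs, 65.9% and 67.0% in excitatory neurons and 76.0% and 70.1% in GABAergic neurons. Its share in endothelial cells was 0 of 642 UMIs, which allows up to 0.467%, and 0.122%. The 95% Wilson intervals of RGCs (8.58 to 26.1% and 8.68 to 24.1%) did not reach those of excitatory neurons (62.2 to 69.4% and 63.5 to 70.4%). All such intervals cover counting error only. A share within a pair depends on how well each mRNA is captured, so shares are compared between classes and not read as ratios of proteins.

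Hexokinases trap glucose in the cell as glucose 6-phosphate. Hk1 (ENSMUSG00000037012), the form found in most tissues and abundant in brain, stood at 41.1 and 57.3 CPM in endothelial cells and 44.9 and 46.2 CPM in excitatory neurons, which overlapped. GABAergic neurons held 33.5 and 31.7 CPM, RGCs 17.2 and 21.2 CPM and IPCs 14.2 and 16.3 CPM. Hk2 (ENSMUSG00000000628), a form known to be induced by growth signals and low oxygen, was highest in RGCs with 31.7 and 28.3 CPM. It reached 26.5 and 12.5 CPM in IPCs, 4.59 and 3.34 CPM in excitatory neurons and 2.72 and 1.45 CPM in GABAergic neurons. Endothelial cells held 1 UMI of Hk2 in all.

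The 2 hexokinases thus ran in opposite directions between RGCs and excitatory neurons. Hk2 was higher in RGCs by 2.71 ± 0.21 (log2 ± SE, adjusted p = 2.96e-05) and Hk1 was lower by 1.45 ± 0.12, with a log2 difference of -1.45 (adjusted p = 5.34e-05). Hk2 made up 64.9% and 57.1% of the pair in RGCs, 65.1% and 43.3% in IPCs, 9.27% and 6.75% in excitatory neurons and 7.51% and 4.39% in GABAergic neurons. The IPC libraries did not overlap in their intervals (55.8 to 73.4% and 32.1 to 55.2%), yet both stood above every neuronal library.

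Aldolases split fructose 1,6-bisphosphate. Aldoc (ENSMUSG00000017390), the brain form, known as a marker of astrocytes and of Purkinje cell stripes, was counted 861 and 844 times in RGCs, or 321 and 332 CPM. It fell to 50.7 and 30.5 CPM in IPCs and to 3.28 and 2.28 CPM in excitatory neurons. In GABAergic neurons it was at 4.69 and 2.61 CPM, in endothelial cells at 3.63 and 0 CPM and in erythroid cells at 3.80 and 5.23 CPM, and these 4 classes overlapped from neighbour to neighbour. After thinning, 40.8% and 35.5% of RGCs had a UMI of Aldoc, against 6.34% and 4.55% of IPCs, 0.729% and 0.448% of excitatory neurons and 0 of the 183 and 243 erythroid cells that were deep enough, which allows shares of up to 1.64% and 1.23%. Without thinning the mean shares were 68.7%, 18.6%, 2.46% and 2.08%.

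Aldoa (ENSMUSG00000030695), the form that most tissues use, showed a flatter pattern. It stood at 246 and 227 CPM in endothelial cells, 130 and 143 CPM in RGCs, 113 and 107 CPM in IPCs, 64.2 and 61.3 CPM in excitatory neurons and 48.3 and 54.9 CPM in GABAergic neurons, with no overlap between neighbours. The feature list holds a further row named Aldoa (ENSMUSG00000114515), which overlaps the gene on the same strand and held only 32 and 43 UMIs over the 6 classes. Reads that fit both rows would not have been counted, so the level of Aldoa is uncertain. Aldoc made up 71.2% and 69.8% of the aldolase pair in RGCs, 31.1% and 22.1% in IPCs and 4.87% and 3.58% in excitatory neurons.

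Pgk1 (ENSMUSG00000062070) and Pkm (ENSMUSG00000032294) encode the enzymes of the steps that make ATP, and Pkm is known for alternative splicing into M1 and M2 forms, which 3' counts do not separate. Pgk1 was highest in RGCs (203 and 199 CPM) and IPCs (170 and 185 CPM), intermediate in endothelial cells (106 and 127 CPM) and lower in excitatory (71.2 and 72.6 CPM) and GABAergic neurons (64.0 and 58.7 CPM). Pkm was highest in endothelial cells (461 and 551 CPM), followed by IPCs (349 and 356 CPM), RGCs (320 and 303 CPM), excitatory neurons (207 and 213 CPM) and GABAergic neurons (178 and 180 CPM). Among these 5 classes no neighbours overlapped for either gene.

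Ldha (ENSMUSG00000063229) encodes the subunit that predominates in glycolytic tissues and Ldhb (ENSMUSG00000030246) the subunit that predominates in oxidative ones. Ldha stood at 323 and 292 CPM in endothelial cells, 242 and 275 CPM in RGCs, 223 and 186 CPM in IPCs, 93.9 and 86.0 CPM in excitatory neurons and 44.6 and 38.9 CPM in GABAergic neurons. Ldhb stood at 257 and 296 CPM in RGCs, 244 and 292 CPM in IPCs, 198 and 211 CPM in excitatory neurons and 168 and 174 CPM in GABAergic neurons, but at 35.1 and 31.6 CPM in endothelial cells. RGCs and IPCs overlapped in Ldhb. Ldha spread widely over the 4 neural classes, whereas Ldhb was set apart by the endothelium.

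Ldhb made up 9.80% and 9.75% of the lactate dehydrogenase UMIs in endothelial cells. The share was 51.6% and 51.9% in RGCs, 52.3% and 61.1% in IPCs, 67.8% and 71.0% in excitatory neurons and 79.0% and 81.7% in GABAergic neurons. From RGCs to IPCs, excitatory and then GABAergic neurons, no library of an earlier class stood above a library of a later class. The order of RGCs and IPCs did not hold with stricter gates, where IPCs had 47.7% and 56.0% and RGCs 52.1% and 51.6%, or without Scrublet cells, where IPCs had 51.9% and 59.7% and RGCs 51.5% and 52.0%.

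**Figure D2:**
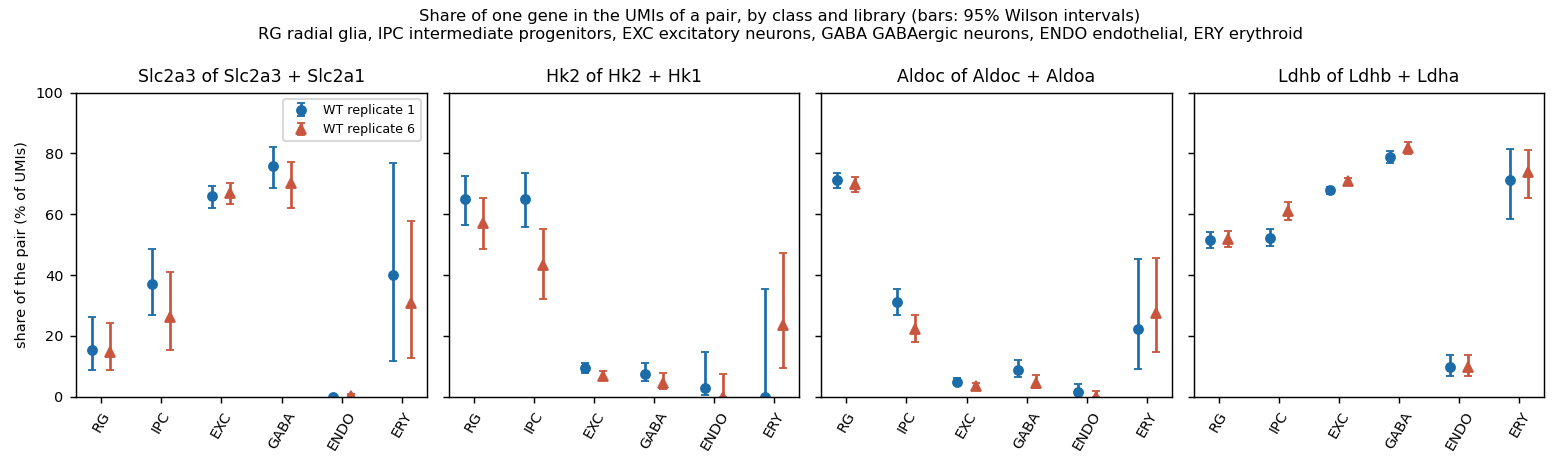
Share (% of UMIs) of Slc2a3, Hk2, Aldoc and Ldhb in the UMIs of its pair, by class. Points are the 2 WT libraries and bars their 95% Wilson intervals. The mean share of Slc2a3 was 15.1% in RGCs and 66.5% in excitatory neurons, that of Hk2 61.0% and 8.01%, that of Aldoc 70.5% and 4.22%, and Ldhb took 9.77% in endothelial cells.

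To ask how the 10 genes differ between progenitors and the neurons they give rise to, RGCs and IPCs were each compared with excitatory neurons. Of the 10 genes, 7 were higher in RGCs (Slc2a1, Hk2, Aldoa, Aldoc, Pgk1, Pkm and Ldha), 2 were lower (Slc2a3 and Hk1) and Ldhb was not called (0.23 ± 0.10, adjusted p = 0.0714). Over all 15903 genes tested, 28.7% were higher and 30.9% lower. The median log2 difference was 1.05 over the 10 genes and -0.07 over all genes. With the library as a block, Ldhb passed too (0.23, adjusted p = 0.0293).

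Among the genes higher in RGCs, the difference was 6.67 ± 0.15 for Aldoc on the log2 scale, or 102-fold (adjusted p = 2.16e-07). It was 1.32 ± 0.10 for Ldha (adjusted p = 2.49e-05), 1.28 ± 0.07 for Pgk1 (adjusted p = 5.77e-06) and 1.19 ± 0.17 for Slc2a1 (adjusted p = 0.000742). Aldoa differed by 0.92 ± 0.09 and Pkm by 0.37 ± 0.08, the smallest of the called differences (adjusted p = 0.00688). Slc2a3 was 4.90-fold lower, with a log2 difference of -2.29 ± 0.21 (adjusted p = 6.82e-05). Every called gene moved in the same direction within each library.

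IPCs differed from excitatory neurons in the same 9 genes and directions, where 23.8% of all 15484 genes were higher and 25.6% lower. Aldoc was higher by 3.74 ± 0.28 (adjusted p = 1.74e-05), Hk2 by 2.17 ± 0.34 (adjusted p = 0.00117), Pgk1 by 1.16 ± 0.08 (adjusted p = 1.20e-05) and Ldha by 1.05 ± 0.10 (adjusted p = 9.07e-05). Hk1 was 3.30-fold lower in IPCs (adjusted p = 1.45e-05). Slc2a3 was lower by 1.39 ± 0.26, with a log2 difference of -1.39 (adjusted p = 0.00263), which was -0.90 in WT replicate 1 alone and -2.05 in WT replicate 6 alone. Both comparisons share the excitatory neuron sums. Slc2a1 missed the threshold here with DESeq2 (0.60, adjusted p = 0.112) and without the low-count filter (0.57, adjusted p = 0.0901), and without that filter Slc2a3 and Hk2 missed it as well (adjusted p = 0.0584 and 0.0558). Ldhb passed with the library as a block (0.25, adjusted p = 0.00258).

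Between the progenitor classes themselves, Aldoc was the only gene of the 10 that was called. It was higher in RGCs by 2.94 ± 0.19 on the log2 scale, a 7.67-fold difference (adjusted p = 6.43e-06), where 15.1% of all 12118 genes were higher and 12.6% lower. The difference was 2.61 within WT replicate 1 and 3.38 within WT replicate 6. Hk2 and Slc2a1 had log2 differences of 0.55 ± 0.29 and 0.58 ± 0.25 that did not pass (adjusted p = 0.206 and 0.112), and Ldhb differed by -0.01 ± 0.14.

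GABAergic neurons were lower than excitatory neurons in 8 of the 10 genes and higher in none, against 21.1% of all 16152 genes lower and 20% higher. Ldha had the largest of the called differences, -1.19 ± 0.09 (adjusted p = 4.14e-05), which makes it 2.29-fold lower. Slc2a1 followed with -0.90 ± 0.18 (adjusted p = 0.00500) and Hk1 with -0.57 ± 0.08 (adjusted p = 0.000815), while Slc2a3, Aldoa, Pgk1, Pkm and Ldhb lay between -0.44 and -0.32. Hk2 had -0.99 ± 0.35 (adjusted p = 0.0537) and was called with the library as a block (-1.01, adjusted p = 0.00537), and Aldoc had 0.33 ± 0.34 (adjusted p = 0.478). The median over the 10 genes was -0.41 against -0.02 over all genes. Some of these calls were lost under an alternative, that of Slc2a3 in 3 of 8 refits and those of Aldoa and Pgk1 in 1 each. GABAergic neurons had the lower depth per cell, and the part of depth in this result was not tested.

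**Figure D3:**
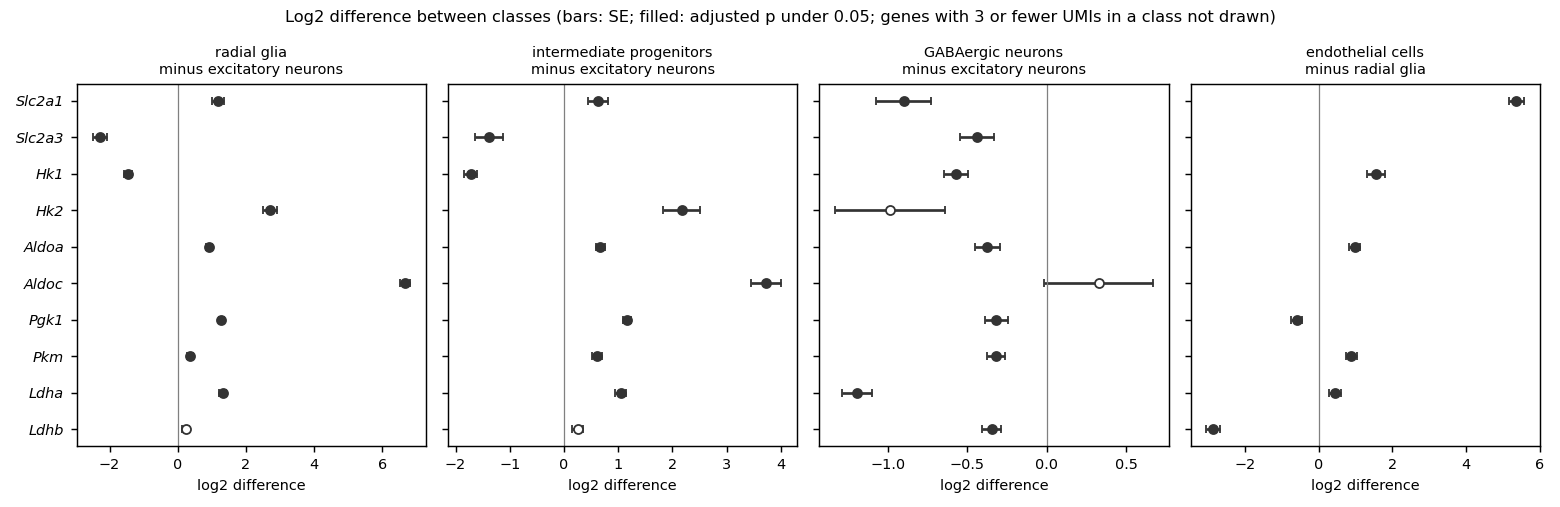
Log2 differences of the 10 genes in 4 comparisons (first class minus second), with SE bars from 2 libraries per class and filled points where the edgeR adjusted p was under 0.05. Horizontal axes differ between panels, and genes with 3 or fewer UMIs in a class are not drawn. The points of Hk1 and Hk2 lay on opposite sides of 0 in both progenitor comparisons, and Ldhb was the lowest point drawn for endothelial cells against RGCs (-2.86).

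Endothelial cells were next set against RGCs. Besides Slc2a1, 4 genes were higher in endothelial cells, namely Hk1 by 1.54 ± 0.25 (adjusted p = 0.000473), Aldoa by 0.98 ± 0.14 (adjusted p = 0.000261), Pkm by 0.88 ± 0.15 (adjusted p = 0.000768) and Ldha by 0.44 ± 0.15 (adjusted p = 0.0351). Ldhb was 7.28-fold lower (-2.86 ± 0.18, adjusted p = 5.91e-07) and Pgk1 1.51-fold lower (-0.60 ± 0.14, adjusted p = 0.00619). Hk2 and Aldoc were called lower too, from 1 and 3 UMIs in all. Their levels were 50.5-fold higher in RGCs with a counting interval of 8.94 to 2008 and 183-fold higher with an interval of 62.5 to 888. Of the 9 genes tested, 5 were thus higher and 4 lower, where 24.8% of all 11710 genes were higher and 24.7% lower, and Slc2a3 was too low to be tested.

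The call of Ldha was the least stable of these. It was lost without TMM scaling (0.25, adjusted p = 0.186), without the low-count filter (0.35, adjusted p = 0.112) and with DESeq2 (0.40, adjusted p = 0.218), and within the libraries the difference was 0.64 and 0.25. That of Pgk1 was lost with the stricter cell filter (-0.41, adjusted p = 0.101) and with DESeq2 (-0.64, adjusted p = 0.0523).

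Against excitatory neurons, endothelial cells were higher in 5 genes, Slc2a1, Aldoa (1.78 ± 0.11, adjusted p = 1.49e-06), Ldha (1.64 ± 0.11, adjusted p = 4.19e-06), Pkm (1.13 ± 0.12, adjusted p = 5.32e-05) and Pgk1 (0.57 ± 0.11, adjusted p = 0.00251). They were lower in Ldhb (-2.75 ± 0.14, adjusted p = 5.90e-07) and, from 1 UMI each, in Slc2a3 and Hk2, and Hk1 was not called (-0.02 ± 0.16). Over all 15671 genes, 24.6% were higher and 30.6% lower. The call of Hk2 did not hold in 5 of 8 refits (adjusted p = 0.0653 to 0.113). Genes induced by dissociation also differed, since the 9 genes of that list summed to 669 and 517 CPM in endothelial cells, 376 and 303 CPM in RGCs and 69.4 and 64.3 CPM in excitatory neurons. All 9 were called higher in endothelial cells and 4 of 9 in RGCs than in excitatory neurons, against 24.6% and 28.7% of all genes. Their part in the differences of the 10 genes was not tested.

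Erythroid cells, which lose their mitochondria and depend on glycolysis once mature, were compared with excitatory neurons after TMM scaling. Only Aldoc was called, at 2.85 ± 0.58 (adjusted p = 0.0194), from 4 and 8 UMIs. Of all 14766 genes, 4.21% were higher and 2.8% lower. The call was lost without the low-count filter (adjusted p = 0.166), with the stricter cell filter (adjusted p = 0.0868) and without TMM (adjusted p = 0.197). The 6 check markers of RGCs summed to 1226 CPM in erythroid cells once globins were taken out and to 887 CPM in excitatory neurons, and the part of free RNA in the Aldoc value was not tested. The other 9 genes had log2 differences between -0.83 and 1.15 (adjusted p = 0.177 to 0.965). Without TMM, 8 were called, all of them lower, with a shift of -2.12 in the median of all genes.

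RGCs and IPCs with at least 3 of 8 cell-cycle markers were compared with those with at most 1, to ask whether the 10 genes differ between cycling and non-cycling progenitors. There were 134 and 141 cycling against 96 and 83 non-cycling RGCs, and 79 and 66 against 164 and 179 IPCs. Cycling cells were deeper, with medians of 11001 and 10908 against 8430 and 8873 UMIs in RGCs. In IPCs the medians were 11755 and 11002.5 against 8594.5 and 7889 UMIs. The part of depth in the cycling differences was not tested. Aldoa stood at 87.9 and 113 CPM in cycling RGCs and 206 and 217 CPM in non-cycling RGCs, and at 57.3 and 38.2 CPM against 150 and 137 CPM in IPCs. The groups did not overlap in either class. Aldoa fell by 1.05 ± 0.16 on the log2 scale in cycling RGCs (adjusted p = 0.000906) and by 1.53 ± 0.20 in cycling IPCs (adjusted p = 0.000186). The further row named Aldoa went the other way in RGCs, with 4 and 6 UMIs in cycling against 1 and 0 in non-cycling cells. In IPCs this row held 0 and 3 against 0 and 1 UMIs, too few to give a direction. Its mean was 3.06 CPM in cycling and 0.649 CPM in non-cycling RGCs, and 2.04 and 0.354 CPM in IPCs. The part of reads that fit both rows in the Aldoa difference was not tested.

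Aldoc was also lower in cycling RGCs, with 267 and 256 CPM against 459 and 499 CPM (-0.85 ± 0.14, adjusted p = 0.00134), whereas in IPCs its difference was -0.42 ± 0.38 (adjusted p = 0.489). Ldhb was lower in cycling IPCs, with 205 and 203 CPM against 279 and 329 CPM (-0.55 ± 0.15, adjusted p = 0.0220), and in RGCs the difference was -0.40 ± 0.14 (adjusted p = 0.0959), and with the library as a block it was called (-0.40, adjusted p = 0.00996). The Ldhb call in IPCs was lost with stricter gates (-0.42, adjusted p = 0.122) and with DESeq2 (-0.53, adjusted p = 0.195). Pgk1 and Pkm did not pass in either class (log2 differences of -0.07 and 0.17 in RGCs, 0.15 and 0.28 in IPCs), though Pkm passed in IPCs with the block (0.28, adjusted p = 0.0418). No gene of the 10 was called higher in cycling cells of either class in the fit without the block.

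Of the genes tested, 2 of 9 were lower in cycling RGCs and 2 of 10 in cycling IPCs. Over all genes, 7.45% of 10308 were higher and 4.83% lower in RGCs, and 11.9% of 9897 were higher and 8.14% lower in IPCs. Whether the cycling difference itself differed between RGCs and IPCs was tested with an interaction term in edgeR, and none of the 10 genes passed, with 2 at an unadjusted p under 0.05 (Slc2a3 and Hk1), 0 with DESeq2 and 0.391% of all 11006 genes called. For Aldoa the difference of the differences was 0.52 ± 0.27 (adjusted p = 0.602). The check markers of RGCs moved with cycling as well, at 11330 and 11840 CPM in cycling and 16504 and 19611 CPM in non-cycling RGCs, and their part in the Aldoc difference was not tested.

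**Figure D4:**
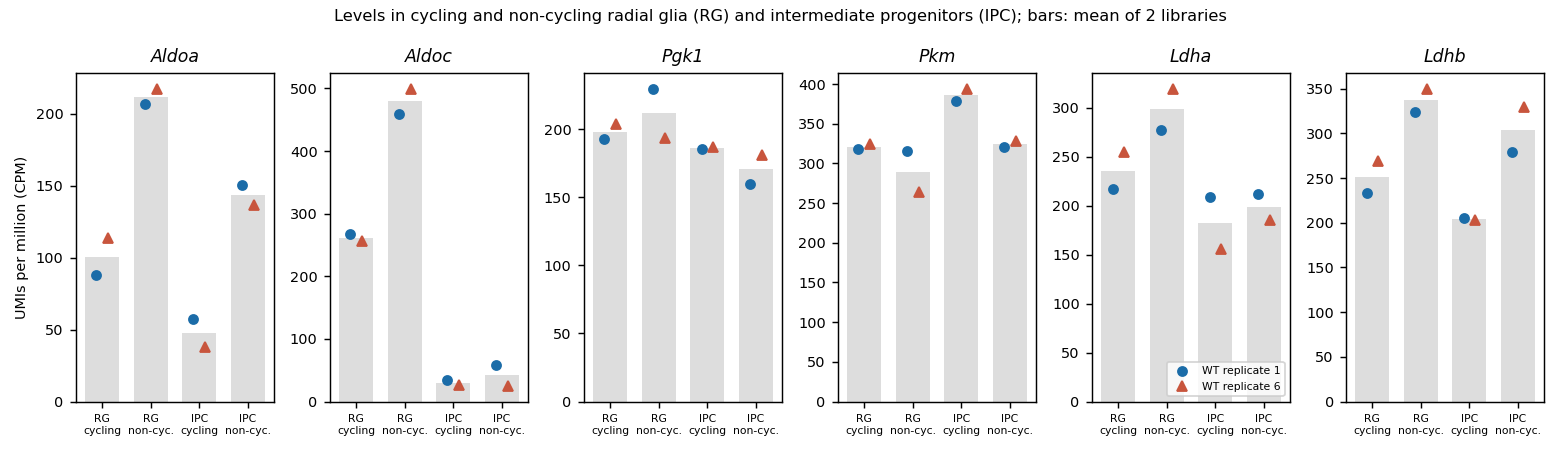
CPM (linear axes that start at 0 and differ between panels) of 6 of the genes in cycling and non-cycling RGCs and IPCs. Points are the 2 WT libraries and bars their means. Aldoa was lower in cycling cells of both classes (101 against 212 CPM and 47.7 against 144 CPM on average), while Pgk1 lay between 160 and 230 CPM throughout.

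The other enzymes of glycolysis gave a mixed picture between RGCs and excitatory neurons. Of 12 tested of 17 listed, 6 were higher in RGCs (Eno1, Gapdh, Gpi1, Pfkl, Pgam1 and Tpi1) and 4 lower (Eno2, Pfkm and Pfkp among them), all named after their values were seen, with a median log2 difference of 0.64 against -0.07 over all genes. The platelet-type phosphofructokinase gene Pfkp, whose product serves the committed step, fell by 2.74 ± 0.18 (adjusted p = 1.55e-05), from 27.7 CPM in neurons to 4.76 CPM in RGCs. In IPCs, 7 were higher and 3 lower than in excitatory neurons (median 0.49 against -0.05 over all genes), with Pfkp at -2.86 ± 0.20 (adjusted p = 1.28e-05). GABAergic neurons had 5 of 13 lower and 2 higher than excitatory neurons. Over all genes, 28.7% were higher and 30.9% lower in RGCs, 23.8% and 25.6% in IPCs and 20% and 21.1% in GABAergic neurons.

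Endothelial cells were higher than RGCs in 4 of 9 of these enzymes and lower in 2, with Pfkp at 3.30 ± 0.54 (adjusted p = 0.000525). Against excitatory neurons, 5 of 12 were higher and 3 lower. Over all genes, 24.8% were higher and 24.7% lower in endothelial cells than in RGCs, and 24.6% and 30.6% than in excitatory neurons. The neuronal enolase gene Eno2 had 0 UMIs in endothelial cells and was at least 3.98-fold higher in excitatory neurons, taking 3 counts over both libraries as the limit. In erythroid cells the only one called was Bpgm, which makes the 2,3-bisphosphoglycerate that lowers the oxygen affinity of haemoglobin, at 471 CPM against 21.3 CPM in excitatory neurons (6.59 ± 0.23, adjusted p = 2.03e-07). RGCs and IPCs differed in 1 of 9, Eno1, higher in RGCs by 0.54 ± 0.13 (adjusted p = 0.0133). Of 8 tested with cycling, none was called in RGCs, and in IPCs Gapdh was higher (0.72 ± 0.13, adjusted p = 0.00207) and Gpi1 lower (-0.71 ± 0.18, adjusted p = 0.0145). Erythroid cells had 4.21% of all genes higher than excitatory neurons, and RGCs had 15.1% higher and 12.6% lower than IPCs. With cycling, 7.45% of all genes were higher and 4.83% lower in RGCs, and 11.9% and 8.14% in IPCs.

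Among 14 genes of lactate and pyruvate handling, the transporter gene Slc16a7 (MCT2, a high-affinity carrier of lactate known from neurons) was lower in RGCs than in excitatory neurons by 3.24 ± 0.14, with a log2 difference of -3.24 (adjusted p = 1.52e-06), at 9.41 against 76.8 CPM. In that comparison 5 of 13 were higher and 2 lower, against 28.7% and 30.9% of all genes. Bsg, the chaperone of lactate carriers at the membrane, stood at 4125 CPM in endothelial cells and 205 CPM in RGCs (4.52 ± 0.18, adjusted p = 3.75e-08). Between these classes 2 of 11 were higher and 1 lower, against 24.8% and 24.7% of all genes. GABAergic neurons had 8 of 12 lower than excitatory neurons and 1 higher, against 21.1% and 20% of all genes. Their median log2 difference was -0.46 against -0.02 over all genes. The lower ones included Slc16a7 (-1.94 ± 0.08, adjusted p = 1.45e-06). Against excitatory neurons, 3 of 12 were higher and 3 lower both in IPCs and in endothelial cells. These counts were near the shares over all genes, 23.8% higher and 25.6% lower in IPCs and 24.6% and 30.6% in endothelial cells. In erythroid cells 2 of 12, Bsg and Mpc2, were called higher after TMM scaling, against 4.21% of all genes. Both had the lower CPM in erythroid cells, at 100.1 against 149 CPM for Bsg and 69.8 against 144 CPM for Mpc2, and without TMM their log2 differences turned to -0.57 and -1.04.

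Of 9 listed other transporters and regulators of glycolysis, 1 was higher and 3 lower in RGCs than in excitatory neurons. The lower ones included Pfkfb4, of the enzymes that set the level of fructose 2,6-bisphosphate, at 6.70 against 18.0 CPM (-1.63 ± 0.19, adjusted p = 0.000272). IPCs had 1 higher and 4 lower, endothelial cells 0 of 8 higher and 3 lower, and GABAergic neurons 0 higher and 1 lower of 9. Compared with RGCs, endothelial cells had 1 of 4 higher and 1 lower, and RGCs had 1 of 6 higher than IPCs. Of all genes, RGCs had 28.7% higher and 30.9% lower than excitatory neurons, and IPCs 23.8% and 25.6%. Endothelial cells had 24.6% and 30.6% there, and GABAergic neurons 20% and 21.1%. Endothelial cells had 24.8% of all genes higher and 24.7% lower than RGCs, and RGCs had 15.1% higher than IPCs.

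Of 12 listed hypoxia-response genes, 10 were tested between RGCs and excitatory neurons. In RGCs 2 were higher and 1 lower, against 28.7% and 30.9% of all genes. Egln3, an oxygen-sensing prolyl hydroxylase gene that is itself a target of the response, stood at 50.4 CPM in RGCs, 14.3 CPM in IPCs and 0.967 CPM in excitatory neurons, with a difference of 5.49 ± 0.21 between the first and the last (adjusted p = 9.89e-07). Ndrg1 went the other way, at 3.57 CPM in RGCs and 45.3 CPM in excitatory neurons (-3.84 ± 0.33, adjusted p = 5.07e-05). RGCs had 3 of 9 higher than IPCs and 1 lower, against 15.1% and 12.6% of all genes. Endothelial cells had 5 of 10 higher than RGCs and 1 lower, against 24.8% and 24.7% of all genes (median 0.94 against -0.03 over all genes). The higher ones included Epas1, the gene of the factor HIF-2α, at 367 against 4.46 CPM (6.54 ± 0.27, adjusted p = 3.92e-08). IPCs had 2 of 10 higher and 3 lower than excitatory neurons, and GABAergic neurons 1 of 10 higher and 4 lower. Over all genes, 23.8% were higher and 25.6% lower in IPCs, and 20% and 21.1% in GABAergic neurons.

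The genes whose log2 CPM ran most like that of each of the 10 were searched among 7130 genes over 12 sums, which come from 2 libraries and share the low values of globin-rich erythroid sums. For Slc2a1 they were Ostf1, Egfl7 and Bsg (Pearson r of 0.992 to 0.987), of which Egfl7 was a gate marker of endothelial cells. For Slc2a3 they were Gng3, Cacna1d and Syp (0.978 to 0.975), for Hk2 Emx2, Veph1 and Adamts18 (0.943 to 0.935), and for Aldoc Fabp7, Hes5 and Mt3 (0.973 to 0.969), of which Hes5 was a gate marker of RGCs. The leading gene was Cltb for Hk1, Cr1l for Aldoa, Ppie for Pgk1, Fh1 for Pkm, Etfb for Ldha and Plekho1 for Ldhb. These are descriptions over few points and no test was made.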

How the data were processed

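Single-cell 3' libraries of 2 WT samples were used. Per the submitters' processing notes, the authors processed the reads with Cell Ranger 7.0.0 on mm10 and deposited UMI counts that had not been normalized. Whether intronic reads were counted is not given in the sources used here. The libraries held 74930397 and 68964234 UMIs in 14136 and 13046 cells. The summed counts of the libraries differed with a chi-square of 32.9 per degree of freedom, so they were treated as separate.

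The 10 genes and all gene lists were chosen with earlier results of these data known. Classes were gated on UMIs of marker genes, with thresholds set on the markers alone. RGCs needed Pax6 and at least 3 of 6 markers, IPCs Eomes and at least 2 of 4, excitatory neurons at least 3 of 5, GABAergic neurons at least 3 of 6, endothelial cells at least 4 of 8 and erythroid cells at least 20% globin UMIs. Neurons needed fewer than 3 cycling markers, and classes other than erythroid cells under 5% globin. The GABAergic class may hold cells of the striatum. Cells that reached 2 gates were left out, with 2 exceptions. IPCs could also carry the markers of RGCs, and no cell was left out of the erythroid class for markers of another class. Scrublet scores (scanpy 1.11.5) were used in an alternative only.

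For each library and class the counts were added up, and the 2 sums of a class were compared with those of another by edgeR 4.0.16 (R 4.3.3) with the quasi-likelihood test, two-sided, TMM scaling, filterByExpr and p-values adjusted after Benjamini-Hochberg across the whole table, calling adjusted p under 0.05. SEs were derived from the F statistic. All 10 genes were looked at in every comparison, and those left unnamed in a comparison were not called there. Of each list, differences are given for at most the 2 called genes with the largest absolute log2 difference. Sums of 1 library come from the same cell suspension, and deviations of same-library sums from class means correlated across genes with r of 0.106 to 0.262 in the 9 comparisons. The test was checked on simulated data. Of changes of 1 on the log2 scale, it recovered between 52.6% (endothelial cells against RGCs) and 89.1% (GABAergic against excitatory neurons). The share was 56.6% with cycling in IPCs and 65.9% with cycling in RGCs. Of changes of 2 on the log2 scale, at least 95.2% were recovered in each comparison. Between 2 (cycling in IPCs) and 15 (IPCs against excitatory neurons) unchanged genes were called per comparison. Alternatives were the library as a replicate block, no TMM, no low-count filter, a stricter cell filter (3000 to 30000 UMIs, under 5% mitochondrial), Scrublet cells left out, stricter gates, globin genes left out and DESeq2 1.42.0. Promoter windows came from RefSeq (GRCm38.p6). The values of 1 listed gene are not reported here.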

Additional observations from a re-analysis of the deposited data

How the results depend on the processing

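Of 49 calls of the 10 genes in the 9 comparisons, 49 were kept with the library as a replicate block, which added 5, and 49 without the globin genes. No TMM kept 46, no low-count filter 43, the stricter cell filter 44, leaving out Scrublet cells 48, stricter gates 46 and DESeq2 43, and in these refits no call changed direction. The number of genes called between erythroid cells and excitatory neurons, 1, became 8 without TMM, 0 without the low-count filter and 0 with the stricter cell filter, and that in cycling IPCs, 2, became 1 with stricter gates and 1 with DESeq2. The other counts stayed within 1.5 times. Without TMM the median log2 difference of all genes shifted by 0.20 for RGCs, 0.14 for IPCs, 0.14 for endothelial cells and -2.12 for erythroid cells against excitatory neurons, and by -0.19 for endothelial cells against RGCs. The share of called genes that were higher then moved from 48.2% to 59.5% for RGCs, from 48.2% to 58.6% for IPCs, from 48.7% to 60.4% for GABAergic neurons and from 60.1% to 1.97% for erythroid cells against excitatory neurons. With DESeq2 it moved from 60.1% to 73.4% for erythroid cells, from 60.7% to 74.7% for cycling RGCs and from 59.3% to 75.7% for cycling IPCs.

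Directions changed for differences of the 10 genes that had not been called, and for the calls of Bsg and Mpc2 in erythroid cells. Between RGCs and IPCs, the log2 difference of Ldhb became 0.047 without TMM, 0.0012 without the low-count filter, 0.015 with the stricter cell filter, 0.047 without Scrublet cells and 0.080 with stricter gates, where Pgk1 became -0.012. Between endothelial cells and excitatory neurons, Hk1 became 0.12 without TMM and 0.078 without Scrublet cells. Between erythroid cells and excitatory neurons, Slc2a1, Hk2 and Ldhb became -0.97, -1.36 and -2.10 without TMM, and Bsg and Mpc2, which had been called higher, became -0.57 and -1.04. Ldhb there became -0.0041 with the library as a replicate block, -0.035 without the low-count filter and -0.13 with the stricter cell filter, Pgk1 0.044 with that filter, 0.093 without Scrublet cells, 0.25 with stricter gates and 0.018 with DESeq2, Pkm 0.0091, 0.0090 and 0.0032 under the last 3, and Aldoa and Ldha 0.16 and 0.058 with stricter gates. With cycling, Hk1 in RGCs became 0.035 without the low-count filter and 0.00085 with DESeq2, Pgk1 0.12 with stricter gates, Hk2 in IPCs -0.026 with stricter gates, and the interaction of Pkm 0.025 without the low-count filter. Apart from the scalings themselves, the causes were not tested.

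Leaving out a library leaves 1 sum per class and no test, so only log2 differences within a library are given. With 2 libraries and 65 to 75 endothelial cells in each, genes of few UMIs had wide counting intervals, and the thinned shares of cells were also computed at 3000 UMIs. Levels recomputed without globin UMIs were added after the data had been seen.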
